A study of Danio rerio with 3 samples.

Results

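The genes of the mGluR6 cascade were followed through the cell types of the adult zebrafish retina in 3 single-cell RNA libraries. They are grm6a and grm6b, which encode the metabotropic glutamate receptor mGluR6, trpm1a and trpm1b, which encode its cation channel, gnao1a and gnao1b, which encode the G protein alpha subunit Go, and nyx, gpr179, rgs11 and prkca. They were chosen by name, as a list of 10 genes, and 9 of the 10 were found among 30579 gene symbols. gpr179 is not analysed here. Rows of the count tables that carry the same symbol apart from a numbered suffix were summed, and the rows of trpm1a are also described one by one.

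ON bipolar cells are the retinal interneurons that depolarize when light comes on. In darkness photoreceptors release glutamate, which acts on mGluR6 at the bipolar cell dendrite, and the receptor activates Go and thereby closes TRPM1. Light lowers the release of glutamate, Go is switched off by a complex that holds RGS11 and the beta subunit Gβ5, and TRPM1 opens. Nyctalopin, the product of nyx, and GPR179 hold the channel and the RGS proteins at the dendritic tip. Human variants of GRM6, TRPM1, NYX and GPR179 cause congenital stationary night blindness. PRKCA is the classical label of rod bipolar cells, and OFF bipolar cells use ionotropic glutamate receptors instead.

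The P23H V3 and P23H V2 libraries came from fish of the line uth4Tg, in which a mouse rhodopsin carrying the P23H mutation is expressed in rods from the rho promoter, a model of retinitis pigmentosa in which rods die and are replaced throughout life. The WT V3 library came from fish of the AB strain without the transgene. By the sample labels all were 4 to 8 months old and were taken 2 to 4 h after light onset. The authors' methods give other ranges for both the age and the hours. The whole retina was dissociated with the patches of pigment epithelium that stayed on it. Each library pooled 3 fish, by the authors' methods, and was made with the 10X V3 or the older V2 chemistry, with 1 library per group. Differences between P23H and WT cannot be told apart from differences between those pools of fish, between strains or between library preparations. No test across conditions was therefore made.

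After filtering, the libraries held 15514 cells and 31030584 UMIs (P23H V3), 4671 cells and 2591315 UMIs (P23H V2), and 13554 cells and 31904044 UMIs (WT V3). A UMI is a tag that counts 1 captured transcript. Levels are UMIs per 1000000 UMIs of a cell type (CPM) with exact 95% Poisson intervals, which cover counting error only. P23H V3 and WT V3 had 62 barcodes in common among the cells kept, and the other pairs none. Transcripts of other cells are also counted in such droplets. rho, the rod opsin gene, stood at 1881 CPM in bipolar cells of P23H V3, at 2354 CPM in P23H V2 and at 13574 CPM in WT V3.

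Bipolar cells numbered 5736 in P23H V3, 509 in P23H V2 and 4073 in WT V3, with medians of 874.5, 278 and 1030 UMIs per cell. The cascade genes and their partners were kept out of the genes used for clustering. The 21 bipolar subclusters of the V3 libraries were grouped by other genes into 4 subtypes. Cells of P23H V2 were given types and subclusters by label transfer from the V3 libraries. The prkca subtype, 108, 34 and 72 cells in the same order of libraries, was set by s100a10b and other genes, and prkca itself was not used. The uts1 subtype, with 78, 30 and 39 cells, carries the peptide urotensin 1. The fezf2/gsg1l subtype held 1761, 134 and 1170 cells. The cabp5a/lrit1a subtype held 3759, 195 and 2693 cells. It took the remaining subclusters with lrit1a or cabp5a at 0.5 or more of the level in the other bipolar cells. Neither gene is confined to it. Over both V3 libraries, subcluster 9 of the fezf2/gsg1l subtype had 115473 CPM of cabp5a, and its subcluster 8 had 2839 CPM of lrit1a. uts1 was likewise not confined to the uts1 subtype, where it stood at 3686 CPM. Subclusters 10 and 0 of the cabp5a/lrit1a subtype had 1105 and 376 CPM of uts1. This grouping was set after the data were seen. A subcluster with amacrine markers, 30 cells in P23H V3, 116 in P23H V2 and 99 in WT V3, stayed outside the subtypes. It held 0.523% of the bipolar cells of P23H V3, 22.8% of those of P23H V2 and 2.43% of those of WT V3. Values for all bipolar cells include it.

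trpm1a, trpm1b and nyx were highest among bipolar cells in the prkca and uts1 subtypes and in 4 of the cabp5a/lrit1a subclusters. In the fezf2/gsg1l subtype no member was above 44.97 CPM in the V3 libraries, a level reached there by gnao1a. isl1, a homeobox gene which is required for ON bipolar cells in mouse, was at 113 CPM in the prkca subtype, 198 CPM in the uts1 subtype and 175 CPM in the cabp5a/lrit1a subtype of P23H V3. The same subtypes had 202, 264 and 237 CPM of isl1 in WT V3. The fezf2/gsg1l subtype had 8.95 CPM of isl1 in P23H V3 and 26.4 CPM in WT V3. The OFF receptor genes grik1a and grik1b, which encode kainate receptor subunits, were at 247 and 175 CPM in the fezf2/gsg1l subtype of P23H V3, and at 248 and 178 CPM in WT V3. The uts1 subtype had 22.0 CPM of grik1a in P23H V3 and 39.6 CPM in WT V3, and no UMI of grik1b in either. grik1a was not low in the other subtypes, at 144 CPM in the prkca and 120 CPM in the cabp5a/lrit1a subtype of P23H V3, and at 108 and 103 CPM in those of WT V3. grik1a was thus highest in the subtype with the least isl1, but was present beside isl1 in the prkca and cabp5a/lrit1a subtypes.

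**Figure D1:**
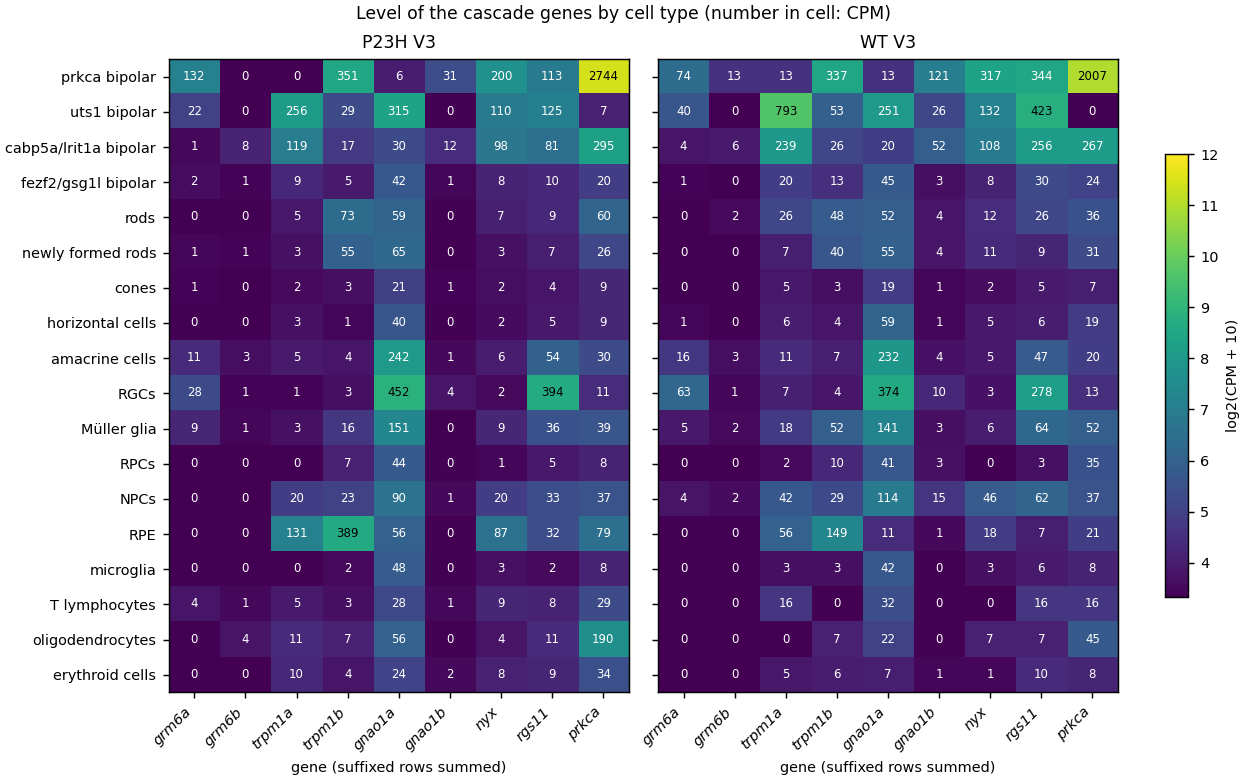
Levels of the 9 cascade genes (columns) in 4 bipolar subtypes and the other cell types (rows), P23H V3 on the left and WT V3 on the right. Color is log2(CPM + 10), the number in each field is the CPM, and no replicate error can be shown. trpm1a is highest in the uts1 subtype, prkca, nyx and gnao1b in the prkca subtype, and gnao1a in retinal ganglion cells (RGCs).

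Of the receptor genes, grm6a had its highest level in the prkca subtype, which held 21 of its 33 bipolar UMIs in P23H V3 and 11 of 29 in WT V3. It reached 132 CPM there in P23H V3 (95% interval 81.4 to 201, 21 UMIs) and 74.1 CPM in WT V3 (37.0 to 133, 11 UMIs). The 2 intervals overlap, and P23H V2 had no UMI in 34 cells of the subtype, where 3 counts would be 271 CPM. The uts1 subtype had 3 UMIs of grm6a in each V3 library. The cabp5a/lrit1a subtype, with the most cells, had 1.48 CPM in P23H V3 (0.481 to 3.45, 5 UMIs) and 4.22 CPM in WT V3 (2.18 to 7.37, 12 UMIs).

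grm6b was the rarest of the 9 genes in bipolar cells. Over all bipolar cells it had 28 UMIs in P23H V3, none in P23H V2 and 18 in WT V3, or 5.00 CPM (3.32 to 7.22) in P23H V3 and 3.97 CPM (2.35 to 6.28) in WT V3. The cabp5a/lrit1a subtype held 27 of the 28 UMIs in P23H V3 and 16 of the 18 in WT V3. Within that subtype grm6b stood at 23.9 CPM in subcluster 1 of P23H V3 and at 12.3 CPM in subcluster 1 of WT V3, and it had 12.4 CPM in subcluster 6 of P23H V3 and 21.5 CPM in subcluster 6 of WT V3. These are subclusters that also carried trpm1a. grm6a had no UMI in subcluster 1 of either V3 library. Only 1 bipolar cell, in WT V3, had UMIs of both receptor genes; at this depth, cells that use both may go undetected.

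The channel genes split by subtype. In the prkca subtype trpm1b was at 351 CPM in P23H V3 (265 to 456) and at 337 CPM in WT V3 (250 to 444), with 40.7% of cells with a UMI in P23H V3 and 45.8% in WT V3. trpm1a had no UMI in the prkca subtype of P23H V3, against a floor of 18.8 CPM, and 2 UMIs in that of WT V3. In the uts1 subtype the order was turned round. There trpm1a stood at 256 CPM in P23H V3 (179 to 357) and at 793 CPM in WT V3 (605 to 1020), while trpm1b had 4 UMIs in each of these libraries.

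As a share of the UMIs of both channel genes, trpm1a took 0% in the prkca subtype of P23H V3 (0 of 56 UMIs, exact 95% interval to 6.38%) and 3.85% in that of WT V3 (2 of 52 UMIs). It took 89.7% in the uts1 subtype of P23H V3 and 93.8% in that of WT V3. The share in the cabp5a/lrit1a subtype was 87.6% in P23H V3 and 90.1% in WT V3. The libraries count 3′ ends, so that transcript length does not enter these shares directly. The intervals of these shares overlapped between the V3 libraries in each of these subtypes.

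Within the cabp5a/lrit1a subtype the channel genes separated 4 subclusters from the other 8. Subclusters 0, 1 and 6 had 240, 299 and 206 CPM of trpm1a in P23H V3, and 456, 740 and 339 CPM in WT V3. Subcluster 7 was instead a trpm1b population: trpm1b stood at 176 CPM in P23H V3 (34 UMIs) and 179 CPM in WT V3 (36 UMIs), and trpm1a made up 29.2% of the channel UMIs in P23H V3 and 25.0% in WT V3. The leading genes of subcluster 7 were calb2b and nme2a. Its level of prkca was 41.5 CPM in P23H V3 and 79.7 CPM in WT V3, far below that of the prkca subtype, the other place of trpm1b.

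Of the remaining 8 subclusters, none had more than 24.4 CPM of trpm1a in P23H V3 or 51.6 CPM in WT V3. In subclusters 15 and 20 isl1 and trpm1a did not go together. Subcluster 20, 36 cells in P23H V3 and 19 in WT V3, had 664 CPM of isl1 in P23H V3 and 1103 CPM in WT V3, the highest level of isl1 among the subclusters, but no UMI of trpm1a or nyx in either. With so few cells no member reached 20 UMIs there in both libraries together, and a low level could go unseen. Subcluster 15, with 85 cells in P23H V3 and 102 in WT V3, had nyx at 78.0 CPM in P23H V3 and 95.7 CPM in WT V3, and isl1 at 195 CPM in P23H V3 and 199 CPM in WT V3, with no UMI of trpm1a in P23H V3 and 1 in WT V3. gnb3a, a beta subunit gene, was at 508 CPM in subcluster 20 of P23H V3 and 836 CPM in that of WT V3.

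**Figure D2:**
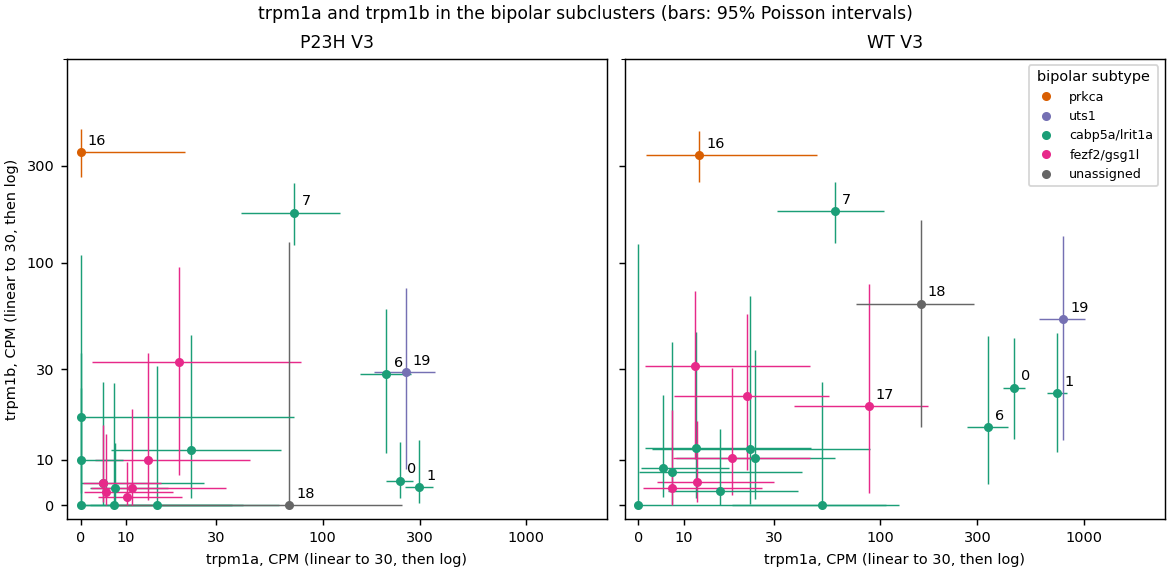
trpm1a (horizontal) against trpm1b (vertical) in CPM for the 21 bipolar subclusters of P23H V3 (left) and WT V3 (right); axes are linear to 30 CPM and logarithmic above, bars are exact 95% Poisson intervals, and colors give the subtype. Subclusters 0, 1, 6 and 19 lie along the trpm1a axis, 16 (the prkca subtype) and 7 lie high on the trpm1b axis, and most others stay near the origin.

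Go alpha was also divided between its copies. gnao1a was high in the uts1 subtype, with 315 CPM in P23H V3 (228 to 424) and 251 CPM in WT V3 (151 to 392). gnao1b had no UMI in that subtype of P23H V3 and 2 UMIs in that of WT V3. The prkca subtype held the opposite pair, with 31.3 CPM of gnao1b in P23H V3 (10.2 to 73.1) and 121 CPM in WT V3 (71.9 to 192), and with 1 and 2 UMIs of gnao1a. Thus the prkca and uts1 subtypes differed in channel copy in both V3 libraries. They also differed in G protein copy, but in the prkca subtype of P23H V3 this rests on 5 UMIs of gnao1b and 1 of gnao1a.

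The share of gnao1a among the UMIs of both Go genes was compared between the V3 libraries in the trpm1a subclusters. Of subclusters 0, 1 and 6, only subcluster 0 had intervals that lay apart. In subcluster 0 it was 81.1% in P23H V3 (43 of 53 UMIs, 68.0 to 90.6) and 16.1% in WT V3 (10 of 62 UMIs, 8.02 to 27.7). In subcluster 1 it was 37.5% in P23H V3 (9 of 24 UMIs, 18.8 to 59.4) and 7.84% in WT V3 (4 of 51 UMIs, 2.18 to 18.9), with intervals that just overlap. Subcluster 6 had fewer than 20 UMIs of both genes together in P23H V3, so no share was given there. Over the cabp5a/lrit1a subtype the share was 72.3% in P23H V3 (64.2 to 79.5) and 28.3% in WT V3 (22.2 to 35.0). P23H V2 had 1 UMI of gnao1a and 6 of gnao1b in that subtype, fewer than 20, so no share was given. Its few UMIs leaned to gnao1b, as those of WT V3 did and those of P23H V3 did not. The level of gnao1b was lower in P23H V3, as given with the comparison of the libraries. gnao1a stood at 58.2 CPM in subcluster 0 of P23H V3 and at 17.3 CPM in that of WT V3, a log2 ratio of 1.75 (95% interval 0.73 to 2.91). In the fezf2/gsg1l subtype gnao1a was the main copy in both libraries, at 42.1 CPM in P23H V3 and 44.97 CPM in WT V3.

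nyx, the scaffold gene, was found in the same subclusters. It was at 200 CPM in the prkca subtype of P23H V3 (137 to 283) and at 317 CPM in that of WT V3 (233 to 421). The uts1 subtype was lower, at 110 CPM in P23H V3 (61.5 to 181) and 132 CPM in WT V3 (63.4 to 243). Subclusters 0, 1, 6 and 7 ranged between 148 and 186 CPM in P23H V3 and between 159 and 234 CPM in WT V3. The fezf2/gsg1l subtype had 7.90 CPM in P23H V3 and 7.85 CPM in WT V3. Outside the trpm1 subclusters it remained at 52.8 CPM in subcluster 3 of P23H V3 and 44.3 CPM in subcluster 3 of WT V3. Cells with UMIs of both nyx and trpm1a numbered 45 in P23H V3, of 357 with nyx, and 88 in WT V3, of 322 with nyx. Those with both nyx and trpm1b numbered 10 in P23H V3 and 23 in WT V3. At this depth, cells that use both genes may go undetected.

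rgs11, which speeds the shutoff of Go, was more widely spread. The prkca subtype had 113 CPM in P23H V3 (66.8 to 178) and 344 CPM in WT V3 (256 to 452), and the uts1 subtype had 125 CPM in P23H V3 (72.6 to 199) and 423 CPM in WT V3 (289 to 597). Subcluster 7 had 259 CPM in P23H V3 and 593 CPM in WT V3. Unlike the channel, rgs11 was also present in subcluster 5, at 94.4 CPM in P23H V3 and 139 CPM in WT V3, and in subcluster 14, at 110 CPM in P23H V3 and 185 CPM in WT V3. In both subclusters neither channel gene was above 24.7 CPM.

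prkca, which encodes protein kinase C alpha, was by far highest in the subtype named for it, with 2744 CPM in P23H V3 (2493 to 3013), 1985 CPM in P23H V2 (22 UMIs) and 2007 CPM in WT V3 (1786 to 2249). It had a UMI in 97.2% of these cells in P23H V3, 41.2% in P23H V2 and 94.4% in WT V3, and in cones its level was 9.16 CPM in P23H V3 and 6.52 CPM in WT V3. It was not confined to that subtype: subcluster 1 had 1119 CPM in P23H V3 and 977 CPM in WT V3, and subcluster 0 had 490 CPM in P23H V3 and 478 CPM in WT V3. The uts1 subtype had 1 UMI in P23H V3 and none in WT V3. prkca therefore went with trpm1b and little trpm1a in the prkca subtype, and with trpm1a and little trpm1b in subclusters 0 and 1.

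**Figure D3:**
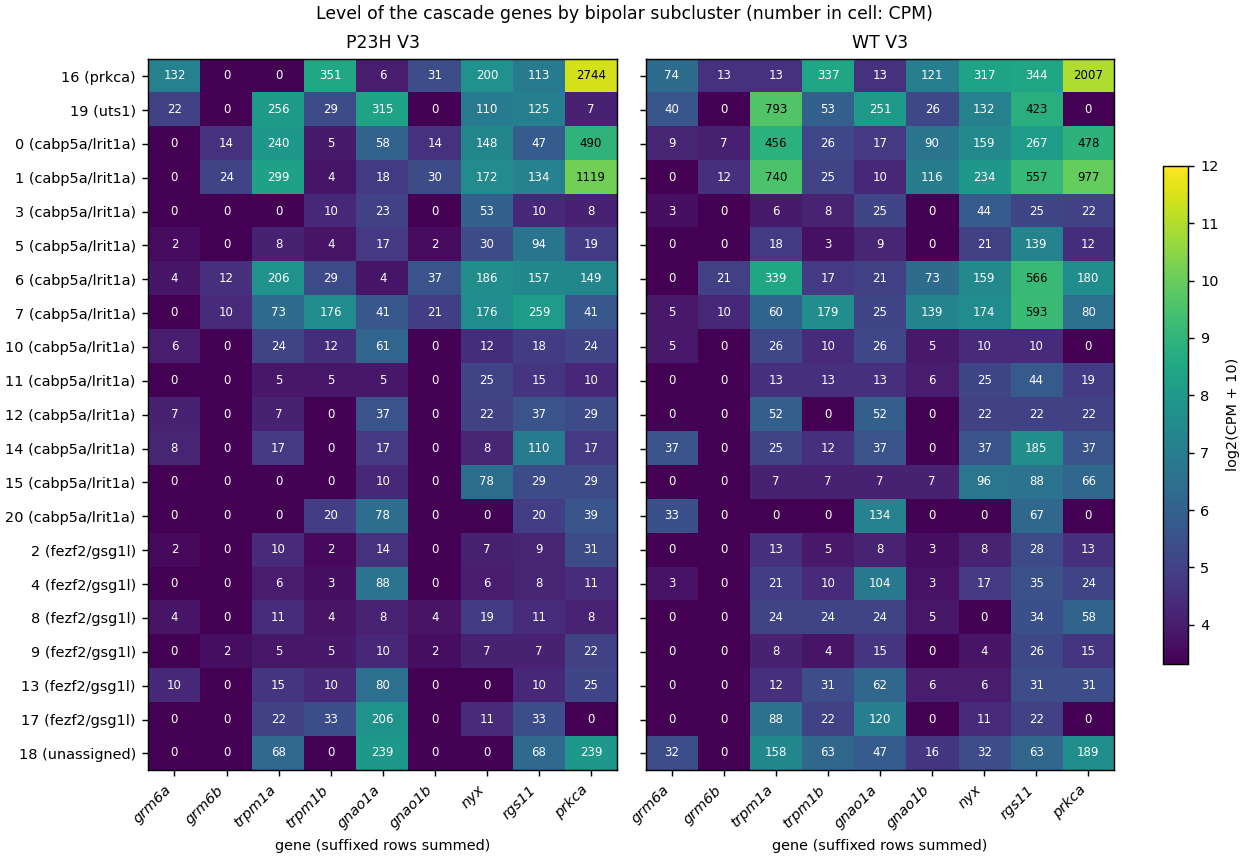
Levels of the 9 cascade genes (columns) in the 21 bipolar subclusters (rows, subtype in brackets), P23H V3 on the left and WT V3 on the right. Color is log2(CPM + 10) and the numbers are CPM, with 1 library per group and no replicate error. A channel gene and nyx are high in subclusters 16, 19, 0, 1, 6 and 7. Not every member is: subcluster 16 has little trpm1a and 19 little prkca. Levels elsewhere are lower, except rgs11 in subclusters 5 and 14, nyx in 15 and 3, and gnao1a in several rows. A further exception is trpm1a and prkca in subcluster 18, which has amacrine markers.

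Shares of cells with a UMI were small and depend on depth. Over all bipolar cells trpm1a was found in 6.78% of cells in P23H V3, 0.786% in P23H V2 and 13.4% in WT V3. In cones, which are not known to use this channel, 0.637% of cells in P23H V3 and 1.54% in WT V3 had a UMI, at medians of 3542 UMIs in P23H V3 and 3456.5 UMIs in WT V3. When every cell was reduced to 1000 UMIs, and shallower cells were left out, the share in bipolar cells was 4.76% in P23H V3 and 12.2% in WT V3. rgs11, treated the same way, was found in 4.91% of bipolar cells in P23H V3 and 14.2% in WT V3. P23H V2 was too shallow for this step.

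Several members were as high or higher outside the bipolar cells. To judge free transcripts, 7 bipolar marker genes were used: their median level in rods was 7.92% of that in bipolar cells in P23H V3 and 6.66% in WT V3, and in RGCs it was 3.31% in P23H V3 and 3.18% in WT V3. gnao1a was highest in RGCs, at 452 CPM in P23H V3 and 374 CPM in WT V3, and stood at 242 CPM in amacrine cells of P23H V3 and 232 CPM in those of WT V3. Go is used by many receptors of the nervous system, and gnao1a had 1086% of its bipolar level in RGCs of P23H V3 and 1169% in those of WT V3. Outside the bipolar cells of the V3 libraries gnao1b was at most 15.4 CPM, in the neurogenic progenitors (NPCs) of WT V3, and it had 1.42 CPM in those of P23H V3.

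rgs11 was abundant in RGCs, with 394 CPM in P23H V3 (366 to 424) and 278 CPM in WT V3 (248 to 309). Among amacrine clusters it was highest in cluster 13, with 258 CPM in P23H V3 and 342 CPM in WT V3. The same cluster had 17.1 CPM of grm6b in P23H V3 (13 UMIs) and 27.3 CPM in WT V3 (10 UMIs), a level of grm6b above that of all bipolar cells in both libraries. grm6a had 28.4 CPM in RGCs of P23H V3 (21.2 to 37.2) and 63.0 CPM in those of WT V3 (49.5 to 79.1), the highest level of any class outside the bipolar cells. Most grm6a UMIs lay outside bipolar cells: 33 of 175 were in bipolar cells in P23H V3 and 29 of 190 in WT V3. Amacrine cells held 71 grm6a UMIs in P23H V3 and 69 in WT V3, and RGCs held 52 and 74. The level of grm6a in amacrine cells was 183% of the bipolar level in P23H V3 and 255% in WT V3. For grm6b, 28 of 51 were in bipolar cells in P23H V3 and 18 of 39 in WT V3.

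trpm1b was present in the pigment epithelium (RPE), a melanin-bearing tissue, as TRPM1 is in mammalian melanocytes. It had 389 CPM in the RPE of P23H V3 (316 to 475), 92.8 CPM in that of P23H V2 (3 UMIs) and 149 CPM in that of WT V3 (139 to 158), and trpm1a had 131, 124 and 56.0 CPM in the same libraries. trpm1a made up 25.2% of the channel UMIs of the RPE in P23H V3 and 27.4% in WT V3. trpm1b was also counted in rods, at 73.3 CPM in P23H V3 (56.2 to 94.0) and 47.9 CPM in WT V3 (36.4 to 61.9), and in the newly formed rods, at 55.0 CPM in P23H V3 and 39.7 CPM in WT V3. In rods trpm1b was at 323% of its bipolar level in P23H V3 and 144% in WT V3. Set against the RPE, trpm1b in rods was lower, while rpe65a and dct, both RPE genes, had 50.8 and 9.46 CPM in rods of P23H V3 and 95.8 and 109 CPM in those of WT V3. Their levels in the RPE were 6113 and 1713 CPM in P23H V3 and 6903 and 5063 CPM in WT V3. The part of transcripts from other cells in the trpm1b of rods was not tested further. trpm1a in rods was at 5.78% of its bipolar level in P23H V3, below the share of the markers, and at 14.9% in WT V3, above it. The rods, 502 cells in P23H V3 and 838 in WT V3, leave out an unnamed cluster whose best match was rods. That cluster held 37 cells of P23H V3 and 1166 of WT V3.

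Müller glia had trpm1b at 16.4 CPM in P23H V3 and 52.1 CPM in WT V3, rgs11 at 35.8 CPM in P23H V3 and 63.7 CPM in WT V3, and gnao1a at 151 CPM in P23H V3 and 141 CPM in WT V3. Oligodendrocytes had 190 CPM of prkca in P23H V3 (51 UMIs) and 45 CPM in WT V3 (12 UMIs). In cones of the V3 libraries no member was above 9.16 CPM except gnao1a, which had 21.2 CPM in P23H V3 and 18.7 CPM in WT V3. Microglia and horizontal cells likewise had little beside gnao1a, with up to 18.8 CPM of prkca in horizontal cells of WT V3. NPCs had trpm1a at 19.9 CPM in P23H V3 and 42.3 CPM in WT V3, but the bipolar markers stood there at 26.1% of the bipolar level in P23H V3 and 21.7% in WT V3, the highest of any class of these libraries.

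The comparison of P23H V3 with WT V3 asked how the cascade differs in a retina where rods degenerate. A gene was called where its ratio was at least 1.5 either way and the Poisson intervals did not overlap, among genes with at least 20 UMIs in both libraries together. All 9 members passed that minimum in all bipolar cells, and 3 were called, all lower in P23H V3: rgs11, gnao1b and trpm1a. Among all 11790 genes compared, 29% were called, 17.7% lower and 11.3% higher, so that 3 of 9 is close to the background share. The median log2 ratio was -0.25 over the members and -0.12 over all genes. With 1 library per group these calls separate 2 pools of cells and not the conditions.

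rgs11 was at 58.5 CPM in bipolar cells of P23H V3 (52.4 to 65.2, 328 UMIs), 90.8 CPM in P23H V2 (49.6 to 152, 14 UMIs) and 189 CPM in WT V3 (176 to 202, 856 UMIs). The log2 ratio of P23H V3 to WT V3 was -1.69 (95% interval -1.88 to -1.50). It was called lower in every subtype, at -1.61 in the prkca, -1.76 in the uts1, -1.67 in the cabp5a/lrit1a and -1.58 in the fezf2/gsg1l subtype. Within the cabp5a/lrit1a subtype it was called lower in subclusters 0, 1, 6 and 7, where 19.2%, 18.4%, 15.8% and 14.9% of all genes compared were called. In subcluster 0 it was at 47.4 CPM in P23H V3 and 267 CPM in WT V3, the widest gap of these 4. In subclusters 5 and 14, where the channel genes were low, the ratios of -0.55 (-1.16 to 0.06) and -0.75 (-1.94 to 0.42) were not called, where 14.1% and 11.9% of all genes were. The interval of subcluster 5 lies above that of all bipolar cells.

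trpm1a stood at 81.7 CPM in bipolar cells of P23H V3 (74.4 to 89.6, 458 UMIs), 25.9 CPM in P23H V2 (7.07 to 66.4, 4 UMIs) and 172 CPM in WT V3 (160 to 184, 779 UMIs), a log2 ratio of -1.07 (-1.24 to -0.90) for P23H V3 over WT V3. It was called lower in the uts1 subtype at -1.63 and in the cabp5a/lrit1a subtype at -1.001. In the fezf2/gsg1l subtype it had 18 UMIs in P23H V3 and 28 in WT V3 and was not called. Its 3 rows did not move together, however, and the unsuffixed row alone gave 1.57 (1.19 to 1.96) in all bipolar cells, higher in P23H V3. The summed value therefore depends on counting the 3 rows as a single gene.

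gnao1b was at 8.21 CPM in bipolar cells of P23H V3 (6.01 to 10.95, 46 UMIs), 58.4 CPM in P23H V2 (26.7 to 111, 9 UMIs) and 37.9 CPM in WT V3 (32.5 to 44.1, 172 UMIs). The ratio of P23H V3 to WT V3 was -2.21 (-2.71 to -1.73), the largest in size among the members, and both of its rows were called lower. P23H V2 was on the other side of WT V3, with a log2 ratio of 0.62 that was not called. The 2 P23H libraries thus did not share a direction for gnao1b, with few UMIs in P23H V2. In the cabp5a/lrit1a subtype gnao1b was called lower at -2.16, and in the prkca subtype its ratio of -1.95 had intervals that touched and was not called.

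The other members were not called in all bipolar cells. trpm1b was at 22.7 CPM in P23H V3 (18.9 to 27.0) and 33.3 CPM in WT V3 (28.2 to 39.1), a log2 ratio of -0.56 that lies just inside the size limit. nyx was at 70.0 CPM in P23H V3 and 83.2 CPM in WT V3 (-0.25, interval -0.46 to -0.04). grm6a was at 5.89 and grm6b at 5.00 CPM in P23H V3, against 6.40 and 3.97 CPM in WT V3, with intervals of the ratio from -0.88 to 0.65 for grm6a and from -0.57 to 1.27 for grm6b. gnao1a was at 41.6 CPM in P23H V3 and 32.0 CPM in WT V3 (0.38, interval 0.07 to 0.69). prkca was at 264 CPM in P23H V3, 311 CPM in P23H V2 and 243 CPM in WT V3, with a ratio of 0.12 (0.01 to 0.23) for P23H V3 over WT V3.

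By subtype, 1 of 6 members that passed the minimum was called in the prkca subtype, where 13.3% of all genes were called. In the uts1 subtype it was 2 of 4 members, against 13.6% of all genes, in the cabp5a/lrit1a subtype 3 of 8, against 26.1%, and in the fezf2/gsg1l subtype 1 of 6, against 22.6%. No member was called higher in a subtype, although gnao1a was in subcluster 0. In the prkca subtype trpm1b was at nearly the same level in both V3 libraries, with a log2 ratio of 0.06 (-0.52 to 0.64). prkca itself had a ratio of 0.45 (0.24 to 0.67) there, below the size limit. With the subclusters of P23H V3 weighted by their shares in WT V3, the ratios were -1.64 for rgs11, -1.07 for trpm1a and -2.12 for gnao1b.

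**Figure D4:**
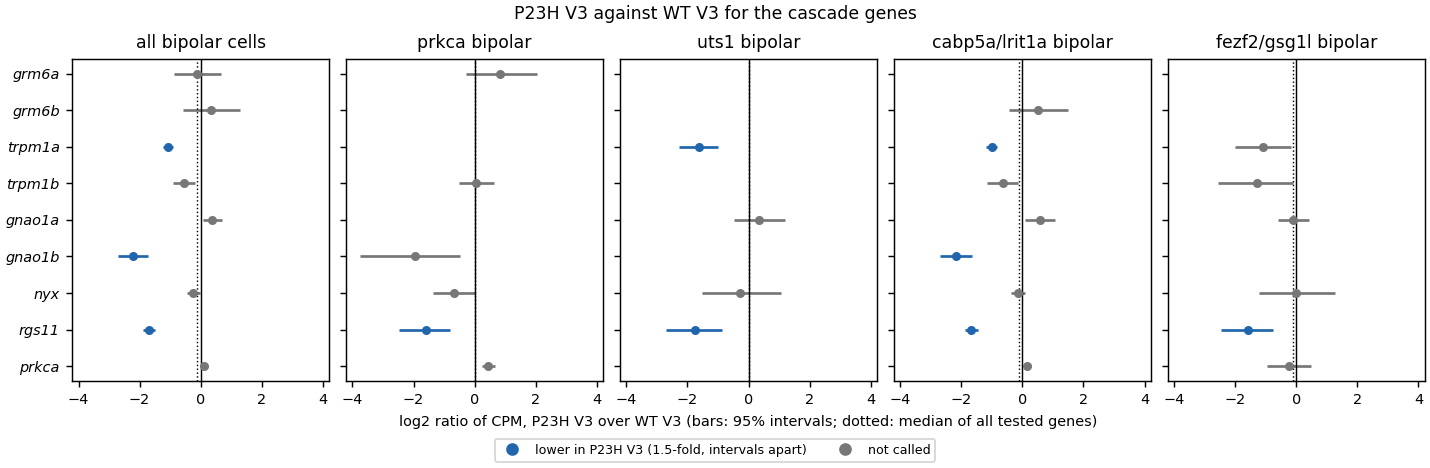
Log2 ratio of CPM, P23H V3 over WT V3, for members with at least 20 UMIs in both libraries together, in all bipolar cells and in each of the 4 subtypes. Points are ratios with exact 95% intervals of counting error, blue where called lower and grey where not called, and the dotted line is the median of all genes compared. rgs11 lies left of 0 in all 5 panels, between -1.76 and -1.58.

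The partner genes were taken as a list beside the members. Of 36 with a row in the tables, 29 passed the minimum in all bipolar cells, 10 were called lower in P23H V3 and 3 higher, where 17.7% of all genes were called lower and 11.3% higher. Their median log2 ratio was -0.54. The lower ones include both genes of Gβ5, the obligate partner of RGS11: gnb5b was at 257 CPM in P23H V3 and 523 CPM in WT V3, and gnb5a at 14.3 CPM in P23H V3 and 25.2 CPM in WT V3. rgs9bp, an anchor of RGS proteins known from photoreceptors, was at 14.8 CPM in P23H V3 and 96.4 CPM in WT V3. Other beta subunit genes were lower as well, gnb1a at 350 CPM in P23H V3 and 1037 CPM in WT V3, gnb1b at 407 CPM in P23H V3 and 941 CPM in WT V3, and gnb3b at 423 CPM in P23H V3 and 1283 CPM in WT V3. gnb1a, gnb1b, gnb3b, gnb5b and rgs9bp are also used by photoreceptors, and the rod gene rho was lower in bipolar cells of P23H V3 too, at 1881 CPM against 13574 CPM in WT V3. The part of photoreceptor transcripts in these values was not tested.

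The remaining lower partners were gpsm2 and lrit2, at 3.39 and 2.32 CPM in P23H V3 and 19.6 and 15.2 CPM in WT V3, lrit1b, at 182 CPM in P23H V3 and 274 CPM in WT V3, and the glutamate transporter gene slc1a2b, at 8.92 CPM in P23H V3 and 17.2 CPM in WT V3. slc1a2b was also among the leading genes of a Müller glia cluster, and the part of transcripts from those cells was not tested. The higher ones included the homeobox gene vsx1, at 2001 CPM in P23H V3 and 1281 CPM in WT V3, and the orphan receptor gene gpr158a, at 15.2 CPM in P23H V3 and 7.94 CPM in WT V3. gnb3a and gng13b, whose mouse counterparts encode the beta and gamma subunits paired with Go in ON bipolar cells, were not called, with log2 ratios of -0.52 and 0.53. gnb3a stood at 1238 CPM in the uts1 subtype of P23H V3 and 1440 CPM in that of WT V3, and at 32.6 CPM in the fezf2/gsg1l subtype of P23H V3 and 72.1 CPM in that of WT V3. rgs7a and rgs7b, the other RGS genes of the pathway, had 4.11 and 4.64 CPM in bipolar cells of P23H V3 and 3.09 and 5.07 CPM in those of WT V3. Partners above 100 CPM in a subtype of both V3 libraries numbered 15, among them bhlhe23, crx, gnb1a, gnb1b, gnb3a, gnb3b, gnb5b, gng13b, isl1, lrit1a, lrit1b, rgs16, ric8a and vsx1.

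Of 10 OFF receptor genes, 7 passed the minimum and 1 was called, where 29% of all genes were. It was gria4a, an AMPA receptor subunit gene, at 15.2 CPM in P23H V3 and 7.72 CPM in WT V3. grik1a was at 162 CPM in P23H V3 and 146 CPM in WT V3, and grik1b at 76.6 CPM in P23H V3 and 71.9 CPM in WT V3. Of the other group III metabotropic receptor genes, 1 passed the minimum, grm4, with 3 UMIs in P23H V3 and 23 in WT V3, and was called lower.

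The genes most like the cascade were sought over 18 cell types and bipolar subtypes, as the Pearson correlation of log2(CPM + 10) with the mean of grm6a, grm6b, trpm1a, trpm1b and nyx. Among 6324 genes the highest were wwc1, with a correlation of 0.91 in P23H V3 and 0.94 in WT V3, fam69c, LOC110438400, gnb3a, gdpd5b, ptpn13, stt3b and LOC101883217. gnb3a, in the fourth place, had 0.84 in P23H V3 and 0.89 in WT V3. The units share libraries and free transcripts, and the order of these genes is a description. Of the other members, gnao1b had 0.55 in P23H V3 and 0.88 in WT V3, prkca had 0.63 in P23H V3 and 0.53 in WT V3, rgs11 had 0.58 in P23H V3 and 0.82 in WT V3, and gnao1a had -0.02 in P23H V3 and 0.13 in WT V3.

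The 3 rows of trpm1a were used unequally by the libraries. Over all cells the row with no suffix held 58.0% of trpm1a UMIs in P23H V3 (345 of 595, 53.9 to 62.0), 76.9% in P23H V2 (10 of 13, 46.2 to 94.96) and 10.1% in WT V3 (138 of 1362, 8.58 to 11.9). It was close in the cell types with most trpm1a: in bipolar cells it was 58.3% in P23H V3 and 9.37% in WT V3, and in the RPE 57.6% in P23H V3 and 10.1% in WT V3. In bipolar cells that row stood at 47.7 CPM in P23H V3 and 16.1 CPM in WT V3, while the row with suffix 1 was at 24.1 CPM in P23H V3 and 123 CPM in WT V3 and the row with suffix 2 at 10.0 CPM in P23H V3 and 33.1 CPM in WT V3. Such rows were not rare: of 697 symbols with 2 or more rows that passed the minimum, 213 (30.6%) had rows called in opposite directions. The cause was not tested, and what the rows stand for in the annotation is not given in the sources used here.

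Within WT V3 the suffixed rows also separated cell types. Suffix 1 held 71.4% of trpm1a UMIs in bipolar cells (68.1 to 74.5) and 16.2% in the RPE (12.6 to 20.5). Suffix 2 held 19.3% in bipolar cells (16.5 to 22.2) and 73.7% in the RPE (68.8 to 78.2). In P23H V3 suffix 2 held 12.2% in bipolar cells (9.37 to 15.6) and 30.3% in the RPE (10 of 33 UMIs, 15.6 to 48.7). The other members with several rows had little in the second row, except gnao1b, whose rows were nearly equal, and grm6b, whose suffixed row held 42 of 51 UMIs in P23H V3 and 31 of 39 in WT V3.

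**Figure D5:**
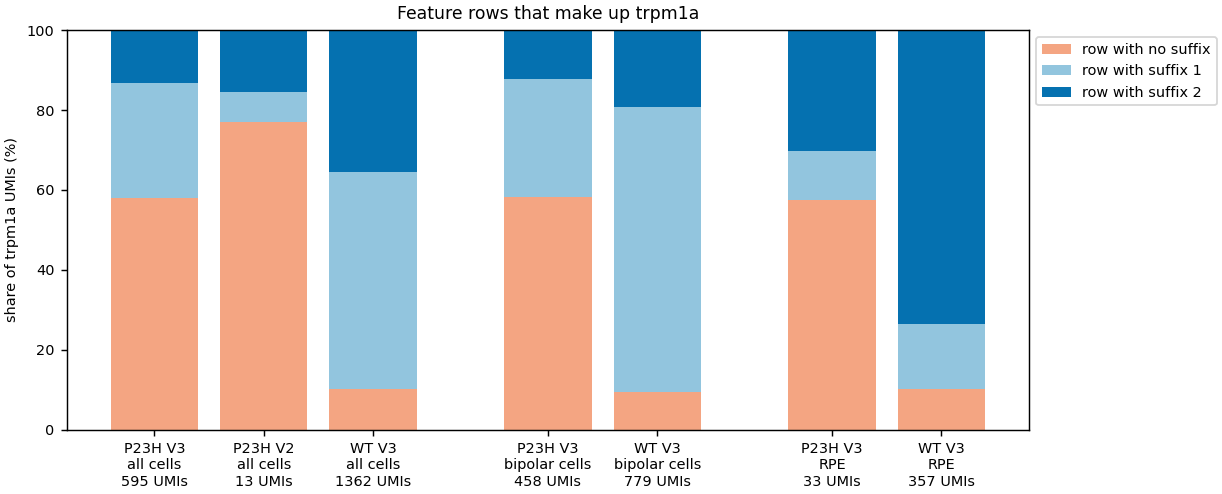
Share of trpm1a UMIs (%) in the row with no suffix, the row with suffix 1 and the row with suffix 2, for all cells, bipolar cells and the RPE of each library with at least 10 UMIs. The row with no suffix takes 58.0% over all cells of P23H V3 and 10.1% in WT V3, and in WT V3 bipolar cells use mainly suffix 1 and the RPE suffix 2.

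Outside the bipolar cells the calls went both ways. In the RPE all 6 members that passed the minimum were called higher in P23H V3, with log2 ratios from 1.23 for trpm1a to 2.28 for gnao1a. Of all genes compared in the RPE 28.8% were called, 22.5% higher and 6.28% lower, and the median log2 ratio of all genes was 0.53. That class had 167 cells in P23H V3 and 1111 in WT V3, and the 7 bipolar markers stood there at 17.9% of their bipolar level in P23H V3 and 2.24% in WT V3. In Müller glia rgs11, trpm1a and trpm1b were called lower (3 of 5 members, 18% of all genes), and in rods trpm1a was (1 of 6, 25.4%). trpm1a had 3 UMIs in Müller glia and 4 in rods of P23H V3, against 31 in each of WT V3. The part of RPE transcripts in the Müller glia values was not tested. grm6a was called lower in RGCs (1 of 5 members, 19.6%), with a ratio of -1.15 (-1.69 to -0.62). In amacrine cells prkca was called higher and trpm1a lower (2 of 9 members, 26.1%). prkca was also higher in oligodendrocytes (1 of 2, 15.4%) and, with gnao1a, in erythroid cells (2 of 4, 27.4%), and it was lower in the dividing progenitors, or RPCs (1 of 3, 17.5%), where 22 UMIs in WT V3 lay in 6 cells. No member was called in cones (0 of 6, 32.2% of all genes), newly formed rods (0 of 3, 18.8%), NPCs (0 of 6, 12.3%), horizontal cells (0 of 2, 17.6%), microglia (0 of 1, 16.5%) or T lymphocytes (0 of 2, 14.6%).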

How the data were processed

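Single-cell 3′ libraries of whole zebrafish retina were analysed from the deposited UMI count matrices, 1 per group (P23H V3, P23H V2, WT V3). Per the labels and the authors' methods, the counts came from Cell Ranger 3.1.2.0 with the genome build GRCz11 and were deposited as raw counts of called barcodes. Cells with 200 to 4700 genes (P23H) or to 6000 genes (WT) and at most 10% mitochondrial UMIs were kept. P23H V3 and WT V3 were integrated by canonical correlation in Seurat 5.3.0 on 2000 variable genes without the members and their partners. With 20 components and a resolution of 0.8 this gave 33 clusters and 21 bipolar subclusters. P23H V2 was not integrated. Its cells took their types and bipolar subclusters by label transfer from the V3 libraries, with no cutoff on the transfer score. Clusters were named from at least 3 markers. A cluster stayed unnamed where its levels correlated above 0.9 with those of the other cells, or where an unrelated class had 40% of its markers. It also did where its leading genes held keratins or more markers of another class. Unnamed clusters held 239 cells of P23H V3 and 1305 of WT V3 and enter no cell type. The largest, whose best match was rods, held 37 and 1166 of these cells. Doublets were kept, since Scrublet's own cutoff marked no cell of WT V3, and removed as an alternative. UMIs were summed per library and cell type and given as CPM with exact 95% Poisson intervals, shares with Clopper-Pearson intervals and log2 ratios with exact conditional intervals. A gene at 0 was set to 3 counts. With 1 library per group no test was made, and intervals cover counting error only. A call needed a ratio of 1.5, intervals apart and 20 UMIs in both libraries together. Every member is described in the types where it was found. Partner and OFF genes were named where called in all bipolar cells or above 100 CPM in a subtype, with a few others chosen after their values were seen. 1 partner gene is counted but not reported here. The 8 genes most like the cascade were named among genes with at least 50 CPM in a type. Members and lists were chosen with earlier results of these data known. The calling rule was tested on simulated counts with counting error only. The simulation held no differences between pools of fish or library preparations, so it does not bear on these. TMM factors (edgeR 4.0.16) and median-of-ratios factors (DESeq2 1.42.0) served only as alternative scalings of the counts. Rows whose place in the assembly was needed, and sequences, were not analysed here.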

Additional observations from a re-analysis of the deposited data

Results flagged for a closer look

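Some members differed between P23H V3 and WT V3 in opposite directions in 2 cell types, each by the calling rule. The difference between the types was not tested in any of these cases, since each group had 1 library. The log2 ratio of trpm1a was -2.55 in Müller glia and 1.23 in the RPE, and that of trpm1b was -1.67 in Müller glia and 1.39 in the RPE. In Müller glia trpm1a had 3 UMIs in P23H V3 and 31 in WT V3. In WT V3 its row with suffix 2 held 58.1% in Müller glia, 73.7% in the RPE and 19.3% in bipolar cells. trpm1a made up 25.6% of the channel UMIs in Müller glia of WT V3 and 27.4% in the RPE. The part of RPE transcripts in the Müller glia values was not tested. rgs11 had a ratio of -1.69 in bipolar cells and 2.24 in the RPE. prkca had a ratio of -2.18 in RPCs and 2.08 in oligodendrocytes. Over all genes compared in the RPE the median log2 ratio was 0.53. In the RPE of P23H V3, with 167 cells, the 7 bipolar markers stood at 17.9% of their bipolar level, against 2.24% in that of WT V3, with 1111 cells. The part of those transcripts in the RPE values was not tested.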

How the results depend on the processing

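No paired analysis was possible because each group had 1 library and the labels give no replicate numbers. For the same reason no replicate could be left out. rgs11 in all bipolar cells stayed lower in P23H than in WT V3 under all 19 alternatives, between -1.95 and -0.27. The last is a difference of mean natural-log values. Some alternatives could not move this ratio: the other minimums of UMIs, and the rows left unsummed, since rgs11 has a single row. TMM and median-of-ratios factors moved the median log2 ratio of all genes from -0.12 to -0.01 and 0.00. P23H V2 set against WT V3 crosses chemistries. With it gnao1b reversed to 0.62 in all bipolar cells and 0.94 in the cabp5a/lrit1a subtype, and to 0.66 and 0.56 with P23H V2 clustered by itself, where rgs11 in the fezf2/gsg1l subtype was 2.12, a bound from 0 UMIs. The members' median was then 0.35, and 0.48 when clustered by itself, where the median of all genes was 0.35 and 0.36. Without summing rows, trpm1a reversed to 1.57 in all bipolar cells, 0.96 in the uts1 subtype and 1.59 in the cabp5a/lrit1a subtype. With cells assigned by marker genes, trpm1a in the prkca subtype was -1.62, where the clusters gave 0 UMIs in P23H V3 and 2 in WT V3 and thus no direction. With at least 500 genes per cell, 5 members were called in all bipolar cells and their median was -0.62, which added trpm1b and nyx. In the prkca subtype 2 members were called at resolution 0.4, with each library clustered by itself, with doublets removed and with the background profile subtracted, 4 with cells assigned by marker genes, and 0 with P23H V2 (either clustering) and with at least 100 UMIs. In the uts1 subtype 4 were called with cells assigned by marker genes, 1 with P23H V2 (either clustering) and without summing rows, and 0 with at least 100 UMIs, where no member was left to compare. In the fezf2/gsg1l subtype 2 were called with each library clustered by itself and with cells assigned by marker genes, and 0 with P23H V2 (either clustering) and with at least 100 UMIs. The cause of these shifts was not tested, beyond the fewer genes and UMIs compared. Of the single-gene results, 802 were counted as unchanged, 16 gained a call in the same direction, 9 lost a call and 9 reversed. An uncalled result that stayed uncalled counted as unchanged whatever its direction. grm6a in all bipolar cells was such a case, with ratios from -0.44 to 1.64. Reversals were counted only where the main or the alternative result was called. The mean of natural-log values and the weighting by WT V3 made no calls, so an uncalled result always counted as unchanged there. Weighting the subclusters as in WT V3 was chosen after seeing the data.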
